A study of Amphiprion ocellaris with 30 samples.

Results

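RNA of 6 genes was followed in larvae of Amphiprion ocellaris, a clownfish of wild-type genotype sampled whole at 5 days post treatment, with T3 at 1e-07 M, with SR9243 at 1e-07 M, or with the solvent DMSO at 0.0001%. T3 is the active thyroid hormone, and SR9243 is a synthetic ligand that the series title calls an antagonist of LXR, a nuclear receptor of sterol metabolism. Each treatment had 10 libraries, 30 in all, numbered 1 to 10 in their titles. An unexplained tag, IOP, stands in the title of every T3 library, and no solvent concentration is attached to the T3 or SR9243 libraries. If the tag marks a second treatment, its effect cannot be told apart from that of T3. Nothing says whether a library is 1 larva or which beaker it came from, so p-values measure the spread between libraries only, and larvae sharing a beaker would not be independent. In entire larvae, fewer cells of a type and less RNA per cell cannot be told apart.

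The genes are ENSAOCG00000000017, ENSAOCG00000000020, ENSAOCG00000000022, ENSAOCG00000000023, ENSAOCG00000000024 and ENSAOCG00000000036, which are 6 of the 22816 Ensembl IDs in the table, and all 6 were tested. They were listed as candidates for mitochondrial genes of cytochrome c oxidase, ATP synthase and cytochrome b, on the assumption that the first IDs of the annotation run in the gene order of the fish mitochondrial genome. That assumption could not be checked by name: the reference gene table, of assembly ASM2253959v1, held 0 Ensembl IDs, and the deposited table gives no symbols. The reference table has 37 genes on the mitochondrial sequence, 13 of them protein coding, and the deposited table has 13 IDs numbered below 37. These are counts and tie no ID to a gene, so the 6 are called by ID, no role is given to any of them, and no sequence is shown. Nor could the larval tissue be checked against marker genes, since no marker has a symbol here.

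As background, the mitochondrial genome encodes a few core subunits of the respiratory chain and of ATP synthase, and nuclear genes encode the rest. Cytochrome b belongs to complex III and passes electrons to cytochrome c, cytochrome c oxidase hands them to oxygen, and ATP synthase uses the resulting proton gradient to make ATP. Mitochondrial RNAs are cut out of long shared transcripts, so their levels depend on transcription, on processing and on the stability of each RNA. Thyroid hormone is a known regulator of mitochondrial content and respiration in vertebrates. Whether any of this applies to the 6 IDs was not tested.

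The levels are the authors' variance-stabilised normalised counts, close to log2 of a read count at these heights and, as far as is stated, not corrected for gene length. Levels of different IDs are therefore not compared with each other, and only differences between groups are. Over the whole table the values ran from 2.88, read as a count of 0, to 18.73. The total number of reads in each library is unknown. All 6 IDs were far above the lowest value in all 30 libraries, with 12.79 as their lowest reading. DMSO libraries 4 and 7 had stood apart in an earlier description of the whole table, and results that rest on them are also given without them.

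T3 against DMSO asks whether these RNAs differed between the libraries labelled T3 and those with the solvent. With T3, 3 of the 6 fell, ENSAOCG00000000017, ENSAOCG00000000036 and ENSAOCG00000000020, and none rose. A gene was called when its adjusted p in limma's moderated test was below 0.05 (two-sided, Benjamini-Hochberg over 22615 genes). Over all tested genes 25.8% were called lower with T3, 24.8% were called higher and 50.5% were called in either direction, so the share of the 6 called in either direction is close to that of the whole table. The median difference over the 6 was -0.24, against -0.01 over all tested genes.

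The largest decrease was in ENSAOCG00000000017. Its level ran from 17.43 through a median of 17.61 to 17.89 in T3 libraries, against 17.72, 18.06 and 18.38 in DMSO libraries. All 10 T3 libraries lay below the DMSO median and 8 lay below the lowest DMSO library, while T3 libraries 2 and 8 overlapped the DMSO range. The means were 17.63 ± 0.14 in T3 and 18.10 ± 0.22 in DMSO libraries (SD, n = 10 each). The difference was -0.47 (SE 0.10, 95% interval -0.68 to -0.27, limma adjusted p = 0.000233), so that normalised counts fell by 27.8% with T3, taking the scale as log2 at this height.

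ENSAOCG00000000036 had a lowest, median and highest level of 15.66, 15.94 and 16.08 in T3 libraries, against 15.94, 16.28 and 16.59 in DMSO libraries. All 10 T3 libraries were below the DMSO median and 5 were below every DMSO library. T3 libraries averaged 15.92 ± 0.14 and DMSO libraries 16.28 ± 0.18 (SD, n = 10 each), a difference of -0.36 (SE 0.09, 95% interval -0.53 to -0.18, limma adjusted p = 0.000938).

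For ENSAOCG00000000020 the levels were 14.87, 15.15 and 15.32 in T3 libraries, against 15.07, 15.40 and 15.70 in DMSO libraries. The ranges overlapped over much of their length, with 2 T3 libraries below the lowest DMSO library and all 10 below the DMSO median. T3 libraries averaged 15.12 ± 0.15 and DMSO libraries 15.41 ± 0.19 (SD, n = 10 each), with -0.30 between them (SE 0.09, limma adjusted p = 0.00769).

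The other 3 did not pass the test. ENSAOCG00000000024 stood at 15.09, 15.42 and 15.59 in T3 libraries, against 15.29, 15.59 and 15.79 in DMSO libraries. All 10 T3 libraries were again below the DMSO median, with a difference of -0.18 (SE 0.08, 95% interval -0.35 to -0.02, limma adjusted p = 0.0636). The interval leaves out 0 while the adjusted p misses the threshold, because the interval is not adjusted for the number of genes.

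ENSAOCG00000000022 stood at 12.90, 12.97 and 13.22 in T3 libraries, against 12.79, 13.20 and 13.38 in DMSO libraries. The 2 lowest of these 20 libraries were DMSO libraries 4 and 7, at 12.80 and 12.79, and 9 of 10 T3 libraries lay below the DMSO median. The difference was -0.12 (95% interval -0.27 to 0.03, limma adjusted p = 0.184).

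ENSAOCG00000000023 stood at 15.57, 15.64 and 15.87 in T3 libraries, against 15.24, 15.70 and 15.85 in DMSO libraries. Here too the lowest libraries were DMSO 7 and 4, and 6 of 10 T3 libraries were below the DMSO median. It was the only one of the 6 with a difference above 0, at 0.04 (95% interval -0.11 to 0.20, limma adjusted p = 0.67).

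**Figure D1:**
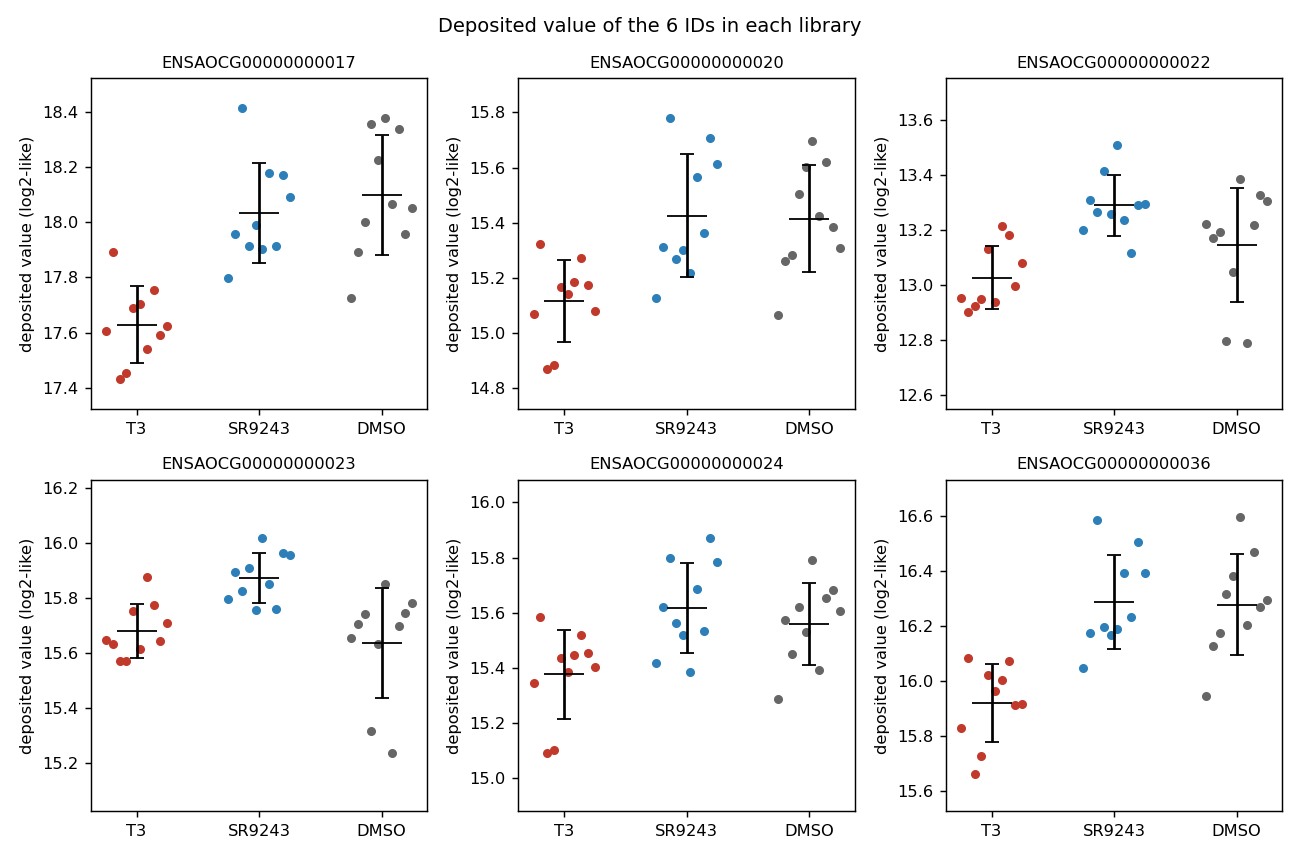
Each panel plots the deposited log2-like value (vertical axis, of the same height in each panel) of one ID in the T3, SR9243 and DMSO libraries. Points are libraries, in order of their number, and black marks are the mean ± SD over 10 libraries. T3 libraries are the lowest group for 5 of the 6 IDs, and DMSO libraries 4 and 7 are the 2 low points for ENSAOCG00000000022 and ENSAOCG00000000023.

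Without DMSO libraries 4 and 7, 5 of the 6 were called lower with T3. ENSAOCG00000000022 then differed by -0.21 (limma adjusted p = 0.00469), ENSAOCG00000000024 by -0.20 (limma adjusted p = 0.0486), and ENSAOCG00000000023, still not called, by -0.05. With quantile normalisation, which gives genes of the same rank the same value in every library, 0 of the 6 were called. ENSAOCG00000000017 then differed by -0.05 (limma adjusted p = 0.704), ENSAOCG00000000020 by -0.13 (limma adjusted p = 0.268) and ENSAOCG00000000036 by -0.22 (limma adjusted p = 0.0554). All 6 stand among the 163 tested genes with a mean level of at least 13. A quantile-normalised value there is set by rank among few genes, and a change in level that kept the rank would be removed. Ranks of the 6 were not compared between groups, so whether this applies to them was not tested. ENSAOCG00000000022 changed sign with T3, from -0.12 to 0.13 with quantile normalisation.

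A further scaling, added after the data were seen, set libraries to the mean of the 7 other IDs numbered below 37. Those 7 had a median difference of -0.11 with T3 themselves, so this scaling takes out any change they share with the 6. Of the 6, only ENSAOCG00000000017 was then called, at -0.31 (limma adjusted p = 0.0453), with ENSAOCG00000000036 at -0.20, ENSAOCG00000000020 at -0.14 and ENSAOCG00000000024 at -0.03.

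SR9243 against DMSO asks whether the LXR ligand changed these RNAs. Of the 6, ENSAOCG00000000023 alone rose, and none fell. Over all tested genes 15% were called higher, 14.1% lower and 29.0% in either direction with SR9243. The share of the 6 called higher is thus close to that of the whole table. The median difference was 0.03 over the 6 and -0.01 over all tested genes.

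ENSAOCG00000000023 ran from 15.76 through a median of 15.87 to 16.02 in SR9243 libraries, against 15.24, 15.70 and 15.85 in DMSO libraries. All 10 SR9243 libraries lay above the DMSO median and 5 lay above the highest DMSO library. SR9243 libraries averaged 15.87 ± 0.09 and DMSO libraries 15.64 ± 0.20 (SD, n = 10 each), a difference of 0.24 (SE 0.08, 95% interval 0.08 to 0.39, limma adjusted p = 0.0194). This call rested on the low DMSO libraries 4 and 7: without them the difference was 0.15 (limma adjusted p = 0.0605). It was also lost with only the SR9243 and DMSO groups in the fit (limma adjusted p = 0.056), and turned to -0.04 with quantile normalisation.

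ENSAOCG00000000022 stood at 13.11, 13.28 and 13.51 in SR9243 libraries, against 12.79, 13.20 and 13.38 in DMSO libraries. The groups overlapped, with 8 of 10 SR9243 libraries above the DMSO median, and the difference of 0.14 did not pass the test (95% interval -0.01 to 0.29, limma adjusted p = 0.144).

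The remaining 4 IDs differed from DMSO by -0.07 to 0.06. The 95% interval was -0.27 to 0.14 for ENSAOCG00000000017, -0.18 to 0.20 for ENSAOCG00000000020, -0.11 to 0.23 for ENSAOCG00000000024 and -0.17 to 0.19 for ENSAOCG00000000036. Decreases as large as the T3 estimates for ENSAOCG00000000017, ENSAOCG00000000020, ENSAOCG00000000024 and ENSAOCG00000000036 thus lay outside these intervals. The T3 estimates carry their own error and share the DMSO libraries, so this is no test of SR9243 against T3. For ENSAOCG00000000024 the T3 decrease was not called, and its 95% interval, -0.35 to -0.02, overlaps the one given here. In quantile-normalised values ENSAOCG00000000017 was called lower with SR9243, at -0.31 (limma adjusted p = 0.0171).

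**Figure D2:**
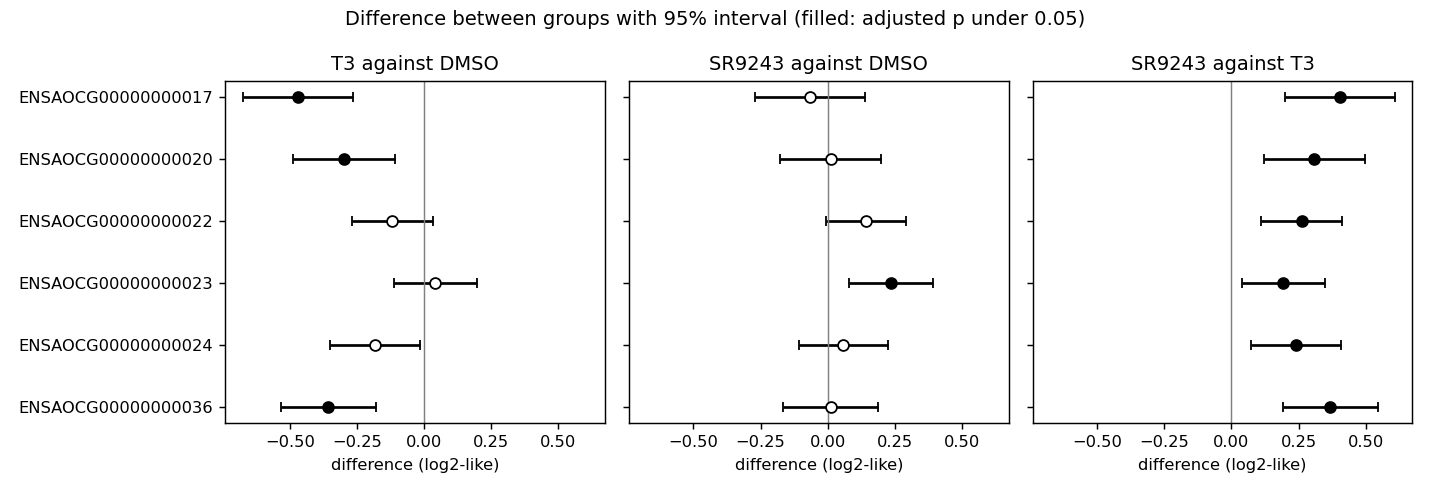
Horizontal axes give the difference between group means on the log2-like scale for each ID, with 95% intervals from limma and a line at 0. Filled points passed an adjusted p of 0.05. For T3 against DMSO the differences run from -0.47 to 0.04, for SR9243 against DMSO from -0.07 to 0.24, and for SR9243 against T3 from 0.19 to 0.40.

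SR9243 against T3 sets the treatments against each other. All 6 IDs were called higher with SR9243 than with T3, by 0.19 to 0.40 with a median of 0.29. Over all tested genes 17.1% were called higher and 34.7% in either direction, with a median difference of 0.00. This comparison shares its T3 and SR9243 libraries with the other 2, so it adds no further libraries to them. Several of the 6 also vary together from library to library, as given below, so the 6 calls are not independent results.

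ENSAOCG00000000017 differed most: its level was 17.80, 17.97 and 18.41 (lowest, median and highest) in SR9243 libraries, against 17.43, 17.61 and 17.89 in T3 libraries. Of the SR9243 libraries 9 were above every T3 library, and the difference was 0.40 (SE 0.10, limma adjusted p = 0.00229). ENSAOCG00000000036 showed the same layout, at 16.05, 16.21 and 16.58 in SR9243 libraries against 15.66, 15.94 and 16.08 in T3 libraries, with 9 SR9243 libraries above every T3 library. Its difference was 0.37 (SE 0.09, limma adjusted p = 0.00137).

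With SR9243, ENSAOCG00000000020 was above its T3 level by 0.31 (SE 0.09, limma adjusted p = 0.00981), at 15.13, 15.34 and 15.78 in SR9243 libraries against 14.87, 15.15 and 15.32 in T3 libraries. ENSAOCG00000000024 was 0.24 higher (SE 0.08, limma adjusted p = 0.0222), at 15.39, 15.59 and 15.87 in SR9243 libraries against 15.09, 15.42 and 15.59 in T3 libraries. In both of these, 5 of the 10 SR9243 libraries were above the highest T3 library.

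With SR9243, ENSAOCG00000000022 was above its T3 level by 0.26 (SE 0.07, limma adjusted p = 0.00613), with 8 SR9243 libraries above every T3 library. ENSAOCG00000000023 was 0.19 higher (SE 0.08, limma adjusted p = 0.0481), and all 10 SR9243 libraries were above the T3 median. That last call is at the threshold: it was lost in 19 of the 30 fits that leave out 1 library, where the adjusted p ran from 0.0151 to 0.0844, and with library number as a block (limma adjusted p = 0.0611).

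The contrast between the treatments was not a property of every scale. Quantile normalisation turned 4 of the 6 differences negative and called ENSAOCG00000000017 lower with SR9243, at -0.26 (limma adjusted p = 0.0405). It left ENSAOCG00000000036 at 0.03 and ENSAOCG00000000022 at 0.01. Scaling to the 7 other IDs numbered below 37 left 0 calls, with differences from -0.05 to 0.16. Those 7 were themselves higher with SR9243 than with T3, by a median of 0.25. A change that they share with the 6 is therefore taken out.

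The 6 IDs did not change by the same amount, and the differences among them were tested within each library. For each of the 15 pairs of IDs the 2 log2-like values of a library were subtracted, and these log ratios were compared between groups with 100000 permutations (two-sided, adjusted over 45 tests). This test was chosen after the levels had been seen. It was not run on pairs of other genes, so its counts have no share over the whole table beside them. The same holds for pairs without overlap. Of all tested genes, limma called 50.5% in either direction for T3 against DMSO. That share is of single genes, by another test and another adjustment, so it is not a background for counts of log ratios. Whether the counts of log ratios are particular to these IDs was not tested. The 15 log ratios are built from the same 6 IDs and are not independent of each other. A log ratio within a library is unaffected by any scaling that adds a constant to all its values. Quantile normalisation is not such a scaling, and log ratios were not tested under it. With T3 against DMSO it gave -0.05 for ENSAOCG00000000017 and -0.13 for ENSAOCG00000000020. It gave 0.13 for ENSAOCG00000000022 and 0.05 for ENSAOCG00000000023. In both pairs this reverses the order of the differences in the deposited values.

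Between T3 and DMSO libraries, 13 of the 15 log ratios differed. Ordered by their difference from DMSO, the IDs ran ENSAOCG00000000017, ENSAOCG00000000036, ENSAOCG00000000020, ENSAOCG00000000024, ENSAOCG00000000022 and ENSAOCG00000000023, from most decreased to least. Each neighbouring pair in that order was separated by its own test except ENSAOCG00000000024 and ENSAOCG00000000022 (permutation test, adjusted p = 0.488), and ENSAOCG00000000020 was not separated from ENSAOCG00000000022 either (adjusted p = 0.155). This order rested in part on DMSO libraries 4 and 7. Without them ENSAOCG00000000017 and ENSAOCG00000000036 were no longer separated (exact permutation test, adjusted p = 0.0542), nor were ENSAOCG00000000020 and ENSAOCG00000000024 (adjusted p = 0.125), and ENSAOCG00000000022 and ENSAOCG00000000024 changed places, at -0.21 and -0.20. The log ratio of ENSAOCG00000000017 to ENSAOCG00000000023 had the largest difference, -0.51 (permutation test, adjusted p = 0.00193), with means of 1.95 ± 0.15 in T3 and 2.46 ± 0.32 in DMSO libraries (SD, n = 10 each).

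In 2 pairs no T3 library reached into the DMSO range. The log ratio of ENSAOCG00000000022 to ENSAOCG00000000023 ran from -2.73 to -2.59 in T3 libraries, against -2.59 to -2.42 in DMSO libraries, a difference of -0.16 (permutation test, adjusted p = 0.0009). That of ENSAOCG00000000017 to ENSAOCG00000000020 ran from 2.36 to 2.57 in T3 libraries, against 2.57 to 2.85 in DMSO libraries, a difference of -0.17 (permutation test, adjusted p = 0.0009). In both pairs all 10 T3 libraries were below all 10 DMSO libraries, by a gap smaller than the rounding of these values.

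**Figure D3:**
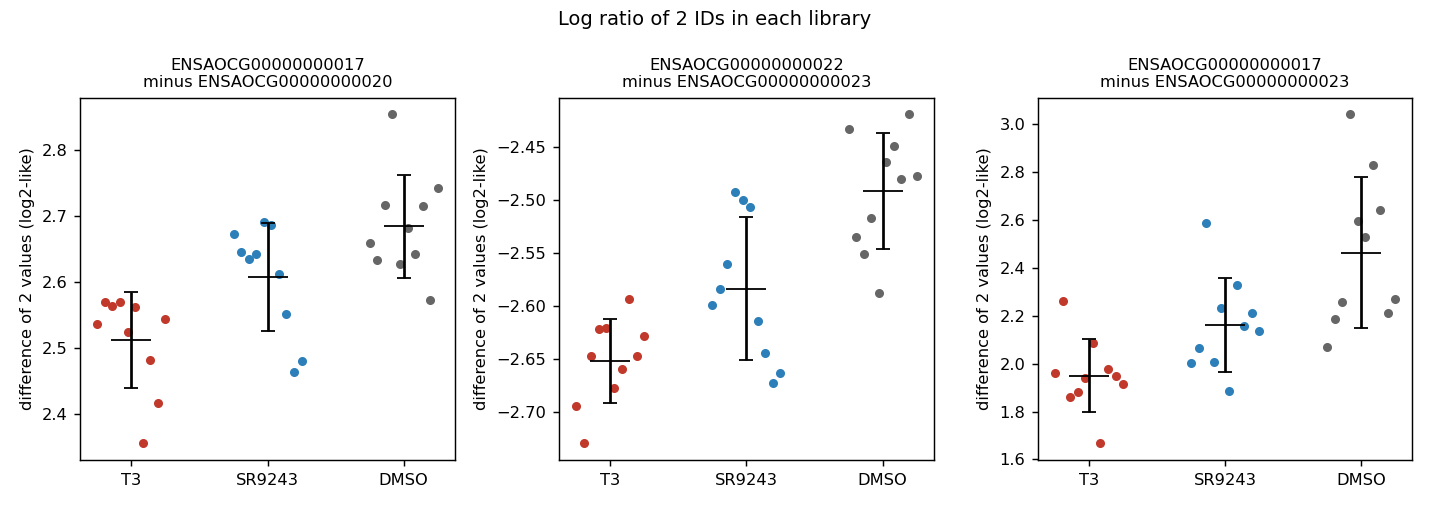
Vertical axes give the difference of 2 IDs' log2-like values in the same library for 3 pairs, with points for libraries in order of their number and black marks for the mean ± SD over 10 libraries. In the left and middle panels all T3 libraries lie below all DMSO libraries and SR9243 libraries overlap both groups.

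Between SR9243 and DMSO libraries 2 of the 15 log ratios differed. The log ratio of ENSAOCG00000000022 to ENSAOCG00000000023 was lower by 0.09 with SR9243 (difference -0.09, permutation test, adjusted p = 0.018), at -2.58 ± 0.07 in SR9243 and -2.49 ± 0.05 in DMSO libraries (SD, n = 10 each). That of ENSAOCG00000000017 to ENSAOCG00000000023 differed by -0.30 (permutation test, adjusted p = 0.0411), a call that was lost without DMSO libraries 4 and 7, at -0.18 (exact permutation test, adjusted p = 0.15). Between SR9243 and T3 libraries 7 of the 15 differed, by -0.18 to 0.21. The log ratio of ENSAOCG00000000022 to ENSAOCG00000000023 was among them, at -2.58 ± 0.07 in SR9243 and -2.65 ± 0.04 in T3 libraries, a difference of 0.07 (permutation test, adjusted p = 0.0376). Over all libraries its mean was thus lowest with T3, between with SR9243 and highest with DMSO, but SR9243 stood nearer DMSO in libraries 1 to 5 and nearer T3 in libraries 6 to 10, a contrast that was not tested. With libraries 1 to 5 the difference of SR9243 from DMSO was -0.02 (exact permutation p = 0.532) and from T3 0.12, while with libraries 6 to 10 it was -0.16 from DMSO and 0.02 from T3 (exact permutation p = 0.643).

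DMSO libraries 4 and 7 bear on these ratios. Without them 8 of 15 pairs differed between T3 and DMSO, and both pairs without overlap had an adjusted p of 0.000514 (exact permutation test). With no overlap over all libraries, those pairs cannot overlap in any subset of them. Their p-values in subsets were thus fixed in advance and add no support. Among libraries 1 to 5 alone the difference was -0.15 for ENSAOCG00000000017 to ENSAOCG00000000020 and -0.14 for ENSAOCG00000000022 to ENSAOCG00000000023. Each had an exact permutation p of 0.00794, the smallest that 5 libraries against 5 allow. Adjusted over 45 tests this p became 0.0893, so 0 pairs passed there. Among libraries 6 to 10 alone 6 pairs passed.

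From library to library within a treatment, the 6 IDs fell into a group of 4 and a group of 2. Deviations from the group mean were correlated over the 30 libraries, with p from 100000 permutations of libraries within their group and adjustment over 15 pairs. All 6 pairs among ENSAOCG00000000017, ENSAOCG00000000020, ENSAOCG00000000024 and ENSAOCG00000000036 passed, as did the pair of ENSAOCG00000000022 and ENSAOCG00000000023, and by Pearson's r the other 8 did not. Pairs of other genes were not put through this test, so these counts have no share over the whole table beside them. Whether they are particular to these IDs was not tested. This division came from the correlations, not from any annotation, and it was less sharp in subsets of the libraries. Without DMSO libraries 4 and 7, 2 pairs across the groups also passed by Pearson's r, ENSAOCG00000000023 with ENSAOCG00000000024 (r = 0.45, permutation test, adjusted p = 0.0396) and with ENSAOCG00000000036 (r = 0.42, adjusted p = 0.0405). Within DMSO libraries alone ENSAOCG00000000024 did not pass with ENSAOCG00000000017 (r = 0.66, permutation test, adjusted p = 0.0794) or with ENSAOCG00000000020 (r = 0.70, adjusted p = 0.0635).

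The closest pair was ENSAOCG00000000020 and ENSAOCG00000000036, with Pearson's r = 0.96 and Spearman's rho = 0.96 (permutation p = 1e-05 for each, the smallest 100000 permutations can give, adjusted p = 2.5e-05). Without the 2 libraries farthest from the median of the first-named ID, r was 0.95. The farthest libraries were chosen in this way for each pair below, so extremes of the second ID could stay in. ENSAOCG00000000022 and ENSAOCG00000000023 had r = 0.93 and rho = 0.89 (permutation p = 1e-05 for each, adjusted p = 2.5e-05), and r = 0.88 without the 2 farthest libraries. The weakest pair inside the group of 4 was ENSAOCG00000000017 with ENSAOCG00000000024, at r = 0.75 and rho = 0.72 (permutation p = 2e-05 and 3e-05, adjusted p = 4.29e-05 and 6.43e-05), and 0.70 without the 2 farthest.

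Across the groups the correlations were lower. ENSAOCG00000000017 and ENSAOCG00000000022 had r = -0.12 and rho = -0.12 (permutation p = 0.58 and 0.557, adjusted p = 0.669 and 0.642). Without the 2 libraries farthest from the median of ENSAOCG00000000017, r was -0.09. The highest across the groups was ENSAOCG00000000023 with ENSAOCG00000000024, at r = 0.36 (permutation p = 0.0492, adjusted p = 0.0923) and rho = 0.41 (permutation p = 0.0247, adjusted p = 0.0464). By rank it passed and by Pearson's r it did not.

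**Figure D4:**
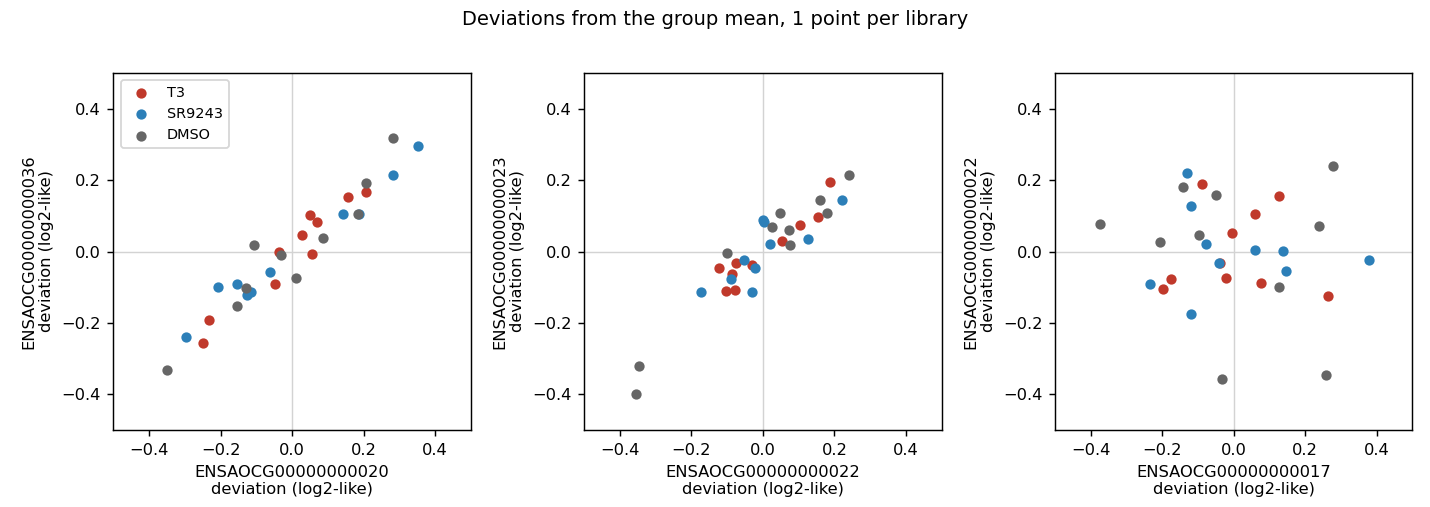
Each point is a library, placed by its deviation from its group mean on the log2-like scale for 2 IDs. Over all 30 libraries the left pair (r = 0.96) and the middle pair (r = 0.93) lie along a line, and the right pair (r = -0.12) does not. Within single groups the middle pair is loosest in SR9243 libraries, with r = 0.79 there, 0.94 in T3 and 0.96 in DMSO libraries.

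The same deviations can be given for single libraries, chosen here after they were seen and adding no evidence for the division. DMSO library 4 had a mean deviation of 0.11 over the group of 4 and of -0.33 over the group of 2, and DMSO library 7 had -0.07 and -0.38. DMSO library 1 went the other way, with -0.33 over the group of 4 and 0.05 over the group of 2. SR9243 library 3, at 0.30 and -0.04, and SR9243 library 6, at -0.17 and 0.18, also had opposite signs in the groups of IDs. In 12 of the 30 libraries all 6 IDs deviated to the same side of their group means, 5 of these with T3, 5 with SR9243 and 2 with DMSO.

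**Figure D5:**
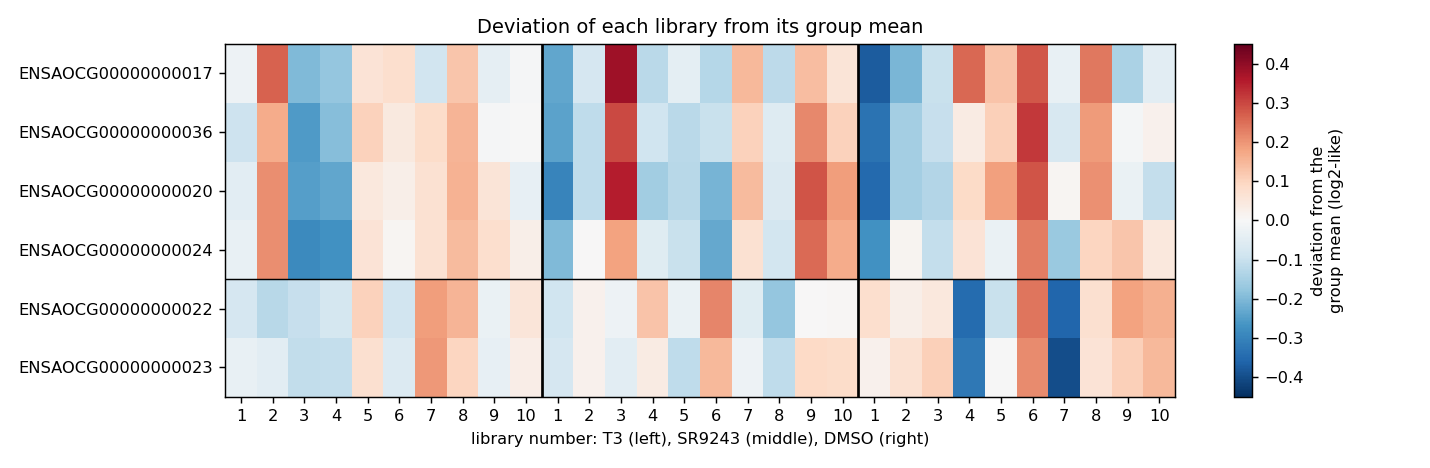
Colour gives the deviation of each library (columns, T3 left, SR9243 in the middle, DMSO right) from its group mean on the log2-like scale, with 1 row per ID. The 4 upper rows share their pattern, as do the 2 lower rows, and the deepest lows of the lower rows are DMSO libraries 4 and 7.

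Spread within a treatment was small. The SD of an ID was 0.10 to 0.16 in T3, 0.09 to 0.22 in SR9243 and 0.15 to 0.22 in DMSO libraries, against a median SD over all tested genes of 0.22, 0.23 and 0.29 in these groups. All 18 SDs were below the median of their group. Against the 163 genes with a mean level of at least 13, whose median SDs were 0.15, 0.19 and 0.26, 5 of 6 IDs were below in T3, 5 of 6 in SR9243 and 6 of 6 in DMSO libraries.

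For each of the 6 IDs, the gene most correlated with it over the 30 libraries, among the 22614 other tested genes, was another of the 6. The least correlated of the 6 ranked far lower, from 3118 for ENSAOCG00000000024 to 15825 for ENSAOCG00000000017. These correlations are of deviations from group means, and they share libraries and the authors' scaling. Outside the 6, the genes with the highest mean r were ENSAOCG00000000034 (0.57) and ENSAOCG00000000033 (0.56), both also numbered below 37. For single IDs this mostly did not hold. The closest gene outside the 6 was not numbered below 37 for ENSAOCG00000000023 (r = 0.79) or ENSAOCG00000000022 (r = 0.71). Nor was it for ENSAOCG00000000017, ENSAOCG00000000020 or ENSAOCG00000000036, whose 12 most correlated genes held 3 of the 6 and no other ID numbered below 37. For ENSAOCG00000000024 the 12 most correlated genes held 5 IDs numbered below 37, of which 3 were among the 6. ENSAOCG00000000033 had r = 0.78 with ENSAOCG00000000023 and 0.27 with ENSAOCG00000000017, and ENSAOCG00000000034 had r = 0.71 and 0.34 with the same IDs.

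The 7 other IDs numbered below 37, a set limited to that number after their levels were seen, can be set beside the 6. With T3 against DMSO 2 of the 7 were called lower and 0 higher, with a median of -0.11 and a range of -0.56 to 0.10. With SR9243 against DMSO 0 were called, with a median of 0.10. With SR9243 against T3 4 of 7 were called higher and 0 lower, with a median of 0.25. Of all 9 other IDs numbered 1 to 40, 8 were tested, and these counts of calls were the same over the 8.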

How the data were processed

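What the authors deposited is a single table of variance-stabilised counts for 22816 Ensembl IDs in 30 libraries, read here as log2-scale values. Per the labels, poly(A) RNA went into stranded libraries, read as pairs of 150 bases. The submitters' processing notes name kallisto 0.46.1 and FastQC 0.11.8. Build, annotation and the stabilising tool: not given in the sources used here. Columns headed TH were read as the T3 libraries. Depth is unknown, so no detection limit was computed, and whether any of the IDs overlap or share reads is not known.

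A gene was tested if it exceeded the table's lowest value in 10 or more libraries (201 removed, 22615 left). 1 linear model with the treatment as its factor was fitted over all libraries (limma 3.58.1, R 4.3.3, mean-variance trend), two-sided, with a Benjamini-Hochberg threshold of 0.05. It was checked on simulated data with 200 changed genes. Permutations were run in Python 3.11.15. Named genes are the 6 listed IDs and the 2 with the highest mean correlation to them. Lists of nuclear respiratory and mitochondrial biogenesis genes were not used, since 0 IDs matched a symbol. The members and lists were chosen with earlier results of these data known. Alternatives were other filters, scalings, variance models, tests and subsets of libraries.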

Additional observations from a re-analysis of the deposited data

How the results depend on the processing

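Counts of IDs called below are for T3 against DMSO (3), SR9243 against DMSO (1) and SR9243 against T3 (6), in that order, and a count not given stayed within 1.5 times of these. With library medians set equal, with or without the IDs numbered 1 to 40, 5 were called for T3, and with library weights 5. Quantile normalisation left 0 called for T3 and 1 for SR9243 against T3, that one lower. For SR9243 against DMSO it also left 1, but this was ENSAOCG00000000017, lower, in place of ENSAOCG00000000023, higher. With only the compared groups in the fit, SR9243 against DMSO had 0 calls. Without DMSO libraries 4 and 7 the counts were 5 and 0 against DMSO. With libraries 1 to 5 only, SR9243 had 0 calls against DMSO and 3 against T3, and with libraries 6 to 10 only, 0 and 0. With SR9243 libraries 6 to 10 and T3 libraries 1 to 5 they were 0 and 1, and with SR9243 libraries 1 to 5 and T3 libraries 6 to 10 0 and 0. With the means of the 7 neighbouring IDs (those others numbered below 37) set equal, chosen after seeing the data, the counts were 1, 0 and 0. That scaling takes out any change those IDs share with the 6. Over 15 settings, single libraries left out not counted, the call of ENSAOCG00000000020 for T3 against DMSO was lost in 5. That of ENSAOCG00000000036 was lost in 2 and that of ENSAOCG00000000017 in 1. The subsets of libraries are smaller than the whole, and other causes were not tested. Leaving out 1 library in turn gave 3 to 5, 1 to 1 and 5 to 6 calls. ENSAOCG00000000024 was called lower with T3 without DMSO library 1, DMSO library 7 or T3 library 2, and ENSAOCG00000000022 without DMSO library 7. Over these fits ENSAOCG00000000023 with T3 ran from -0.0019 to 0.066, and with SR9243 against DMSO ENSAOCG00000000020 ran from -0.029 to 0.044 and ENSAOCG00000000036 from -0.026 to 0.047.

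Sizes of differences moved too, by more than 1.5 times under quantile normalisation, with T3 to -0.049 for ENSAOCG00000000017 and -0.13 for ENSAOCG00000000020, and for SR9243 against T3 to 0.0071 for ENSAOCG00000000022 and 0.03 for ENSAOCG00000000036. With neighbouring IDs set equal ENSAOCG00000000024 with T3 was -0.026. Most changes of sign were in differences near 0. ENSAOCG00000000023 with T3 turned to -0.013 under equal medians (-0.013 also without the low-numbered IDs), -0.019 under library weights, -0.048 without DMSO libraries 4 and 7 and -0.0022 with T3 libraries 1 to 5. ENSAOCG00000000022 with T3 turned to 0.13 under quantile normalisation and 0.038 with neighbouring IDs set equal. Against DMSO with SR9243, ENSAOCG00000000020 was -0.019 and ENSAOCG00000000036 -0.018 under equal medians (-0.019 and -0.018 without the low-numbered IDs), -0.039 and -0.037 under library weights, -0.057 and -0.042 with SR9243 libraries 1 to 5, and -0.082 and -0.081 with neighbouring IDs set equal, where ENSAOCG00000000024 was -0.033. ENSAOCG00000000036 was -0.024 with libraries 6 to 10 only. Quantile normalisation gave -0.21 for ENSAOCG00000000020, -0.043 for ENSAOCG00000000023, -0.15 for ENSAOCG00000000024 and -0.19 for ENSAOCG00000000036. For SR9243 against T3 it gave -0.26 for ENSAOCG00000000017, -0.076 for ENSAOCG00000000020, -0.092 for ENSAOCG00000000023 and -0.053 for ENSAOCG00000000024, and neighbouring IDs set equal gave -0.055 for ENSAOCG00000000023 and -0.0071 for ENSAOCG00000000024.

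Log ratios that differed between T3 and DMSO (13) numbered 8 without DMSO libraries 4 and 7, 0 with libraries 1 to 5 only and 6 with libraries 6 to 10 only. Between SR9243 and DMSO (2) they numbered 1, 0 and 1, and between SR9243 and T3 (7), 0 with libraries 1 to 5 and 2 with libraries 6 to 10. Log ratios were not tested in quantile-normalised values. Same-numbered libraries were not paired: their deviations correlated above 0.1 in 7 of 30 pairs. With library number as a replicate block 3, 1 and 5 IDs were called, and the call lost was ENSAOCG00000000023 for SR9243 against T3 (limma adjusted p = 0.0611). The pairs of IDs past the correlation test (7) numbered 7 under equal medians and 9 without DMSO libraries 4 and 7, and 7, 7 and 5 within T3, SR9243 and DMSO libraries alone. All 18 SDs stayed below the median of all genes under equal medians and without DMSO libraries 4 and 7. Depth is unknown and sets no limit that could be computed.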
